A study of Mus musculus with 12 samples.

Results

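The pyruvate dehydrogenase complex sits at the inner end of glycolysis and turns pyruvate into acetyl-CoA inside the mitochondrion. Its pyruvate dehydrogenase component (Pdha1 and Pdhb encode the alpha and beta subunits) removes carbon dioxide from pyruvate, its dihydrolipoyl acetyltransferase (Dlat) carries the acetyl group to coenzyme A on a lipoyl arm, its dihydrolipoyl dehydrogenase (Dld) reoxidises that arm, and Pdhx encodes the protein that holds the dehydrogenase in place. The pyruvate dehydrogenase kinases (Pdk1, Pdk2, Pdk3 and Pdk4) phosphorylate Pdha1 and switch the complex off, which leaves pyruvate to become lactate. Pdk4 is known for its abundance in heart and skeletal muscle and for its induction by fasting, and Pdk1 is a known target of the hypoxia-inducible factor. Cartilage has no blood vessels and its chondrocytes are known for living largely on glycolysis.

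All probes carrying 1 of these 9 gene symbols were taken, which gave 14 probes of the 45281 on the array. Of these, 12 probes of 8 genes lay in the normalized table of 21004 probes, and the single Pdhx probe lay outside it and was detected on 0 of 12 arrays (lowest detection p 0.181). A further Dld probe outside the table was also detected on 0 arrays. The genes were defined by their function in the complex.

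The 12 Illumina bead arrays measured RNA from the hip cartilage of C57BL6 mice aged 4 to 6 weeks, in 4 groups of 3. Per the methods, the femoral epiphysis was torn off freshly killed animals, and the cartilage was either frozen at once (WT control and Mapk9 KO control) or first kept for 4 h in culture without serum (WT injured and Mapk9 KO injured). Control tissue was thus also taken by avulsion, and the response to injury, the time elapsed and the culture cannot be told apart. "Injury change" is used below for this comparison. Mapk9 encodes JNK2, a stress-activated c-Jun N-terminal kinase, and the knockout is labelled as Mapk9 KO with no further description. Per the methods, each replicate pooled hips of several animals, and the spread between arrays is therefore that between pools.

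Levels are the deposited normalized signals on the log2 scale, in which 1 unit is a doubling, and changes are differences of group means on that scale, injured minus control. "Rose" and "fell" are used for probes with a Benjamini-Hochberg adjusted p under 0.05 over all 21004 probes in limma, a linear model with a moderated variance, and the fold limit asks in addition for a fold above 2. A probe counted as detected on an array where its deposited detection p was under 0.05. The arrays held 16930 to 18969 detected probes. Both Mapk9 probes were lower on all 6 Mapk9 KO arrays than on any WT array. The brighter one lay between 8.69 and 9.28 in the KO and between 10.05 and 10.90 in WT, and the dimmer one between 3.42 and 4.28 against 5.03 and 7.29. Chondrocyte markers (8 of 11 rose in WT and in the KO) were present on every array, with a mean log2 signal over the list of 10.31 to 12.13. The hips also carried RNA of blood, bone, fat and muscle: the mean over 5 erythroid markers was 12.97 to 13.87 on every array. That over 6 osteoblast markers was 11.3 to 12.2, and 1 of them fell in WT and 2 in the KO. Of 5 adipocyte markers, detected on 1 to 12 of the 12 arrays each, 3 fell in WT and 4 in the KO. Of 5 macrophage markers 3 fell and 1 rose in WT and 4 fell and 1 rose in the KO, and of 7 neutrophil and myeloid markers 2 rose in each. The part of these cell types in the members' changes was not tested. The mean log2 signal of 19 skeletal muscle genes was 10.79, 9.99 and 12.20 in WT control, 7.44, 8.45 and 9.34 in WT injured, 12.49, 12.43 and 12.22 in Mapk9 KO control and 8.17, 8.96 and 7.84 in Mapk9 KO injured hips. In such bulk tissue, fewer cells of one type and less RNA per cell cannot be told apart.

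Pdhb had 4 probes in the normalized table, and their sequences are shown first because the 4 probes did not move together. Probe 1 and probe 4 lie at positions 582 and 882 of the same Pdhb transcript and probe 3 at position 1904 of it, while probe 2 was designed on a separate Riken cDNA clone. Whole probes are given for probes 1 and 4, and 30 bases for probes 2 and 3.
Pdhb probe 1: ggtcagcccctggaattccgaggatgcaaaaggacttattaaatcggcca
Pdhb probe 4: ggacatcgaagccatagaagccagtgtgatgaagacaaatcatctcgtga
Pdhb probe 3: tacctcagtctatgggctcctcacacctag
Pdhb probe 2: gtgtttgCCTTTACTCCCAGCACtcaaaag

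The capitals in probe 2 mark the 16 bases of that probe with the most near matches elsewhere. With up to 2 mismatches and on either strand they occurred in the promoter sequences of 69 of 27025 genes in RefSeq (0.255%), against 13 to 37 genes for the commonest 16 bases of the other 11 probes. They resemble the letters of the B1 short interspersed repeats that are spread through the mouse genome. Probe 3 is named Pdhb in the normalized table, but the non-normalized file names it LOC100044756. RefSeq places Pxk, a phox-domain kinase-like gene, 873 bases from Pdhb, and Pxk has a probe of its own, whose values are given below with those of probe 3.

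In WT hips, Pdha1 and Dlat fell more than 2-fold, 1 of the 4 Pdhb probes fell, and Dld and the kinases did not pass the test. Of the 12 probes 3 changed, all downward, where 25.3% of all probes changed and 12.7% fell. With the replicate number as a block, described below, 6 of the 12 changed, against 6225 of all 21004 probes. At the fold limit the count was 2 of 12, against 14.7% of all probes (7.14% down). The control and injured arrays did not overlap for 3 of the 12, against 41.2% of all probes. The median change over the 12 probes was -0.69, against -0.02 over all probes.

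Pdha1, the alpha subunit that the kinases phosphorylate, stood at 11.54, 11.49 and 11.90 in the 3 WT control hips and at 10.71, 10.68 and 10.43 in the 3 WT injured hips. The highest injured array lay below the lowest control array. The change was -1.04 ± 0.21 (SE, n = 3 and 3, limma adjusted p = 0.00513), a fold of 2.05. With 1 array left out it ran from -1.11 to -0.91, so it did not stay beyond the fold limit in every such fit.

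Dlat read 7.57, 7.48 and 8.64 in WT control and 6.73, 6.77 and 6.40 in WT injured hips. The groups did not overlap, and WT control replicate 3 lay well above the other controls. The change was -1.27 ± 0.30 (SE, limma adjusted p = 0.0129), a fold of 2.41. Without that array it was -0.90 (limma adjusted p = 0.0165), and both Pdha1 and Dlat kept their call when any 1 of the 6 WT arrays was left out. The Dlat call was lost in the methods' t-test (adjusted p = 0.122) and in limma with all probes of the array after normexp and quantile normalization (adjusted p = 0.0821).

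Pdhb probe 3 read 8.31, 8.03 and 8.99 in WT control and 7.51, 7.65 and 7.75 in WT injured hips, a change of -0.80 ± 0.26 (SE, limma adjusted p = 0.044). The groups did not overlap. This call was lost in 5 of the 6 fits with 1 array left out (limma adjusted p 0.0796 to 0.124) and was kept without WT control replicate 2. Pdhb probe 1 overlapped between the groups, at 9.47, 9.27 and 10.22 against 9.10, 8.64 and 9.36, and its change of -0.62 ± 0.29 did not pass (limma adjusted p = 0.146). Replicates with the same number shared part of their deviation, and with the replicate number as a block, Pdhb probe 1 passed (limma adjusted p = 0.0409). Pdhb probe 2 read 8.65, 8.66 and 8.25 in WT control and 8.998, 8.93 and 8.32 in WT injured hips, a change of 0.23 ± 0.24 (limma adjusted p = 0.531). Pdhb probe 4, detected on 7 of 12 arrays, gave 5.88, 5.54 and 6.86 against 5.77, 4.91 and 6.42. Its change of -0.39 ± 0.41 had an adjusted p of 0.535 in limma.

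Dld was near background throughout. Its probe was detected on 1 WT control array, 1 Mapk9 KO control array and 0 of the 6 injured arrays. It read 4.73, 6.01 and 6.01 in WT control and 4.46, 5.11 and 4.90 in WT injured hips, and the change of -0.76 ± 0.35 missed the threshold (limma adjusted p = 0.14). With the replicate block it passed (limma adjusted p = 0.0359), as it did without WT control replicate 1 (limma adjusted p = 0.0159). In the Mapk9 KO it read 4.93, 5.43 and 6.61 in control and 5.37, 5.03 and 5.27 in injured hips (change -0.43 ± 0.35, limma adjusted p = 0.368).

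**Figure D1:**
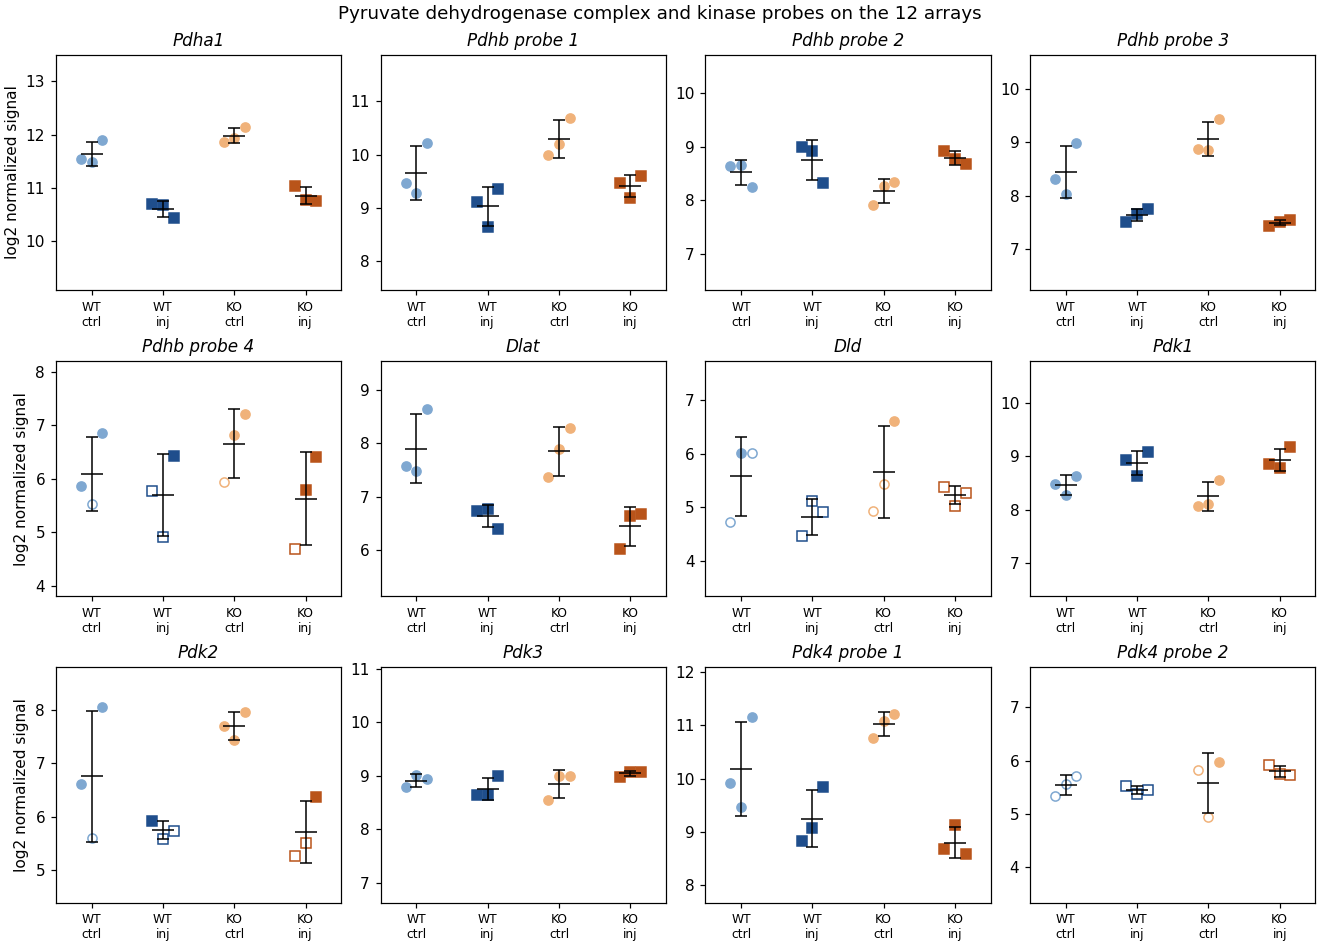
Each panel shows 1 probe, with the log2 normalized signal on the vertical axis and the 4 groups on the horizontal axis (ctrl, control; inj, injured). Points are single arrays, in the order of replicates 1 to 3, filled where the detection p was under 0.05, and bars are the mean and SD of 3 arrays. Every panel spans the same number of log2 units. Pdha1 and Dlat lie lower on all injured arrays than on all control arrays, and the open points of Dld and of Pdk4 probe 2 show how few of their arrays were detected.

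In Mapk9 KO hips, more of the complex and its kinases passed the test. Of the 12 probes 8 changed, 6 down and 2 up, where 38.3% of all probes changed (19.3% down and 19% up). At the fold limit the count was 5 of 12, all down, against 18.7% of all probes (9.14% down). The arrays of the 2 groups did not overlap for 8 of the 12, against 49.7% of all probes. Pdha1, Pdhb probes 1 and 3, Dlat, Pdk2 and Pdk4 probe 1 fell, and Pdk1 and Pdhb probe 2 rose. The median change over the 12 probes was -0.95, against -0.02 over all probes. The control arrays of the KO held the most muscle signal, as listed above.

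Pdha1 read 11.87, 11.93 and 12.15 in Mapk9 KO control and 11.04, 10.77 and 10.75 in Mapk9 KO injured hips. The groups were a full unit apart in their means, with no overlap, and the change of -1.13 ± 0.18 (SE, limma adjusted p = 0.000537) was close to that in WT. The difference between the changes in the KO and in WT was -0.09 ± 0.25, with a 95% interval from -0.63 to 0.45.

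Dlat read 7.37, 7.89 and 8.28 in Mapk9 KO control and 6.02, 6.64 and 6.67 in Mapk9 KO injured hips. All injured arrays lay below all control arrays. The change was -1.40 ± 0.26 (SE, limma adjusted p = 0.00169), and it differed from that in WT by -0.14 ± 0.44 (95% interval -1.08 to 0.81).

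Pdhb probe 1 fell from 9.98, 10.20 and 10.69 to 9.46, 9.18 and 9.59 (change -0.88 ± 0.22, limma adjusted p = 0.00851). Pdhb probe 3 fell further, from 8.88, 8.86 and 9.43 to 7.44, 7.51 and 7.54 (change -1.56 ± 0.20, limma adjusted p = 0.000125). Pdhb probe 2 went the other way, from 7.92, 8.27 and 8.34 to 8.92, 8.77 and 8.68 (change 0.62 ± 0.18, limma adjusted p = 0.0214). So 3 probes given the symbol of 1 gene, each detected on all 12 arrays, gave falls of unequal size and a rise. The rise of probe 2 was lost without KO control replicate 1 (limma adjusted p = 0.0882) and without KO injured replicate 1 (limma adjusted p = 0.0796). Pdhb probe 4 read 5.94, 6.83 and 7.21 against 4.69, 5.79 and 6.41. Its change of -1.03 ± 0.42 missed the threshold (limma adjusted p = 0.0767) and passed with the replicate block (limma adjusted p = 0.00206), without KO control replicate 1 (limma adjusted p = 0.0197) and without KO injured replicate 3 (limma adjusted p = 0.0235).

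The probe of Pxk did not follow Pdhb probe 3. It read 7.84, 7.36 and 7.47 in WT control and 8.57, 7.67 and 7.43 in WT injured hips (change 0.33 ± 0.30, limma adjusted p = 0.456). In the KO it rose from 7.69, 7.25 and 7.31 to 8.43, 8.14 and 8.49 (change 0.94 ± 0.19, limma adjusted p = 0.00293). Pdhb probe 2 had changes of the same sign as those of Pxk, 0.23 in WT and 0.62 in the KO. Which transcripts probes 2 and 3 bound was not tested. In RefSeq, Pdha1 itself overlaps Map3k15 by 1128 bases and the long noncoding RNA gene Gm39547 by 3663 bases. Pdk2 and Pdk3 overlap long noncoding RNA genes as well, by up to 5527 and by 9590 bases.

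**Figure D2:**
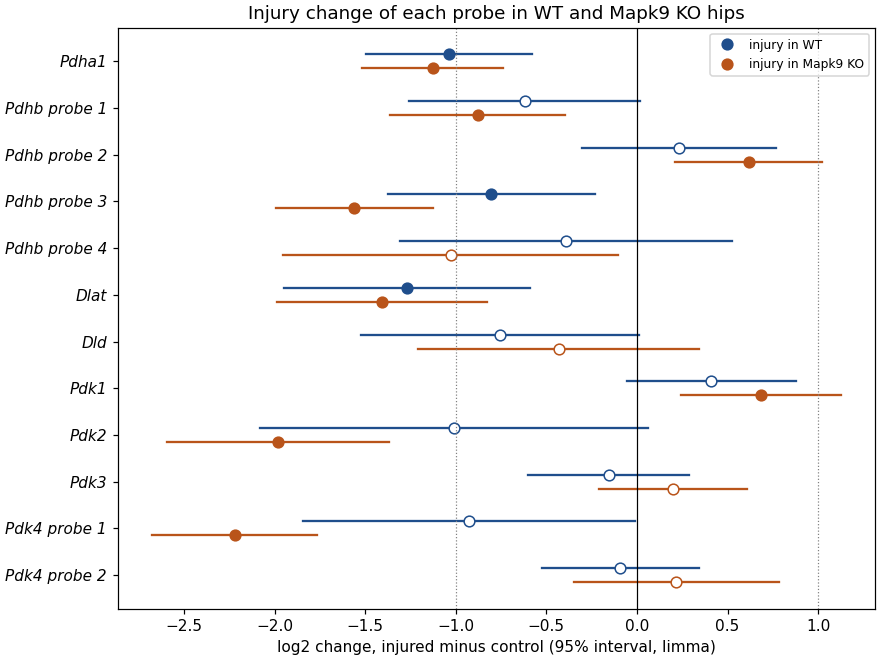
The horizontal axis gives the log2 change (injured minus control) of each of the 12 probes, in WT (blue) and in Mapk9 KO hips (orange), with bars for the 95% interval of limma and dotted lines at a fold of 2. Filled points passed the adjusted threshold and open points did not. Pdha1 lies near -1 in both genotypes, and Dlat lies at -1.27 in WT and at -1.40 in the KO. Pdk1 and Pdhb probe 2 lie to the right of 0, and Pdk4 probe 1 lies at -0.93 in WT and at -2.22 in the KO.

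Among the kinases, Pdk1 rose and Pdk2 and Pdk4 fell in the KO and in the average of both genotypes. Pdk1, the hypoxia-responsive isoform, read 8.48, 8.27 and 8.64 in WT control and 8.92, 8.62 and 9.07 in WT injured hips. The highest control and the lowest injured array just overlapped, and the change of 0.41 ± 0.21 did not pass (limma adjusted p = 0.185). In the KO it rose from 8.08, 8.11 and 8.56 to 8.85, 8.79 and 9.17, with no overlap (change 0.68 ± 0.20, limma adjusted p = 0.0197). Over both genotypes the average injury change of Pdk1 was 0.55 ± 0.14 (limma adjusted p = 0.00509), a fold of 1.46. The call in the KO alone was lost without KO control replicate 1, KO control replicate 2 or KO injured replicate 3 (limma adjusted p 0.067 to 0.0809), while the average kept its call with any 1 array left out.

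Pdk4 probe 1, which matches the RefSeq transcript of the muscle-rich isoform, read 9.92, 9.47 and 11.16 in WT control and 8.83, 9.08 and 9.85 in WT injured hips. The groups overlapped, since WT injured replicate 3 lay above WT control replicate 2. The change of -0.93 ± 0.41 did not pass (limma adjusted p = 0.13), and it passed with the replicate block (limma adjusted p = 0.021). In the KO it fell from 10.77, 11.08 and 11.21 to 8.69, 9.13 and 8.58. The lowest KO control array stood more than a unit above the highest KO injured array, and the change was -2.22 ± 0.21 (SE, limma adjusted p = 1.48e-05), a fold of 4.66. Pdk4 probe 2, designed on a Riken clone, was detected on 1 of 12 arrays, lay between 4.95 and 5.98, and did not pass in either genotype (limma adjusted p = 0.774 in WT and 0.55 in the KO).

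Pdk2, an isoform found in most tissues, read 6.61, 5.62 and 8.05 in WT control and 5.93, 5.60 and 5.73 in WT injured hips. It was detected on 2 WT control arrays and 1 WT injured array, and the change of -1.01 ± 0.48 did not pass (limma adjusted p = 0.158). In the KO it fell from 7.70, 7.44 and 7.96, all detected, to 5.27, 5.51 and 6.38, of which 1 was detected. That change was -1.98 ± 0.28 (SE, limma adjusted p = 0.000256).

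The WT result for Pdk2 and Pdk4 rested on which control arrays were kept. Without WT control replicate 2, the control with the least muscle signal, Pdk2 changed by -1.58 (limma adjusted p = 0.00747) and Pdk4 probe 1 by -1.29 (limma adjusted p = 0.0282). Without WT control replicate 3, the control with the most, Pdk2 changed by -0.36 (limma adjusted p = 0.422) and Pdk4 probe 1 by -0.44 (limma adjusted p = 0.355).

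Pdk3, the fourth kinase, did not pass in either genotype. It read 8.78, 9.004 and 8.94 in WT control, 8.63, 8.63 and 8.99 in WT injured, 8.55, 8.99 and 8.99 in Mapk9 KO control and 8.98, 9.08 and 9.07 in Mapk9 KO injured hips. Its average injury change was 0.02 ± 0.13, with a 95% interval from -0.25 to 0.29, which lies inside the fold limit on both sides.

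Averaged over both genotypes with all 12 arrays in 1 fit, 8 of the 12 probes changed, 6 down and 2 up, where 46.7% of all probes changed (24.2% down and 22.6% up). At the fold limit 5 of 12 passed, all down, against 16% of all probes (7.91% down). These were Pdha1 (-1.08 ± 0.13, limma adjusted p = 7.54e-06), Pdhb probe 3 (-1.18 ± 0.17), Dlat (-1.34 ± 0.22), Pdk2 (-1.49 ± 0.32) and Pdk4 probe 1 (-1.57 ± 0.26), with adjusted p-values from limma of 0.00149 or less. Pdhb probe 1 fell by 0.75 (limma adjusted p = 0.00502) and Pdhb probe 2 rose by 0.42 (limma adjusted p = 0.0311). The rise of probe 2 was lost without WT control replicate 3, WT injured replicate 1 or 2, KO control replicate 1, or KO injured replicate 1 or 2 (limma adjusted p 0.0517 to 0.08). With the replicate block Pdhb probe 4 (limma adjusted p = 0.0207) and Dld (limma adjusted p = 0.0477) passed as well.

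The skeletal muscle signal moved with several of these genes. All 19 listed muscle genes fell in the KO and 16 of 19 fell in WT. Creatine kinase Ckm fell by 2.96 in WT and by 4.93 in the KO, and alpha actin Acta1 fell by 1.61 in WT and fell by 2.32 in the KO. By its estimate, Pdk4 probe 1 had the largest average change of the members, though within the error of that of Pdk2, which was detected on 2 of the 6 injured arrays. The 5 genes whose signal was most like that of Pdk4 probe 1 over the 12 arrays were the sarcomere genes Myh2 (Pearson r = 0.987), Nrap (0.984), Myl3 (0.983), Csrp3 (0.982) and Myom2 (0.980), among 18003 probes. These arrays share their groups, so the correlations describe them and were not tested. Within groups, the order of the 3 arrays by Pdk4 probe 1 was their order by muscle signal in 3 of the 4 groups and the opposite order in Mapk9 KO control hips.

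The signals of most other members ran with or against the muscle mean as well. Over the 12 arrays, Pearson r with the muscle mean was 0.966 for Pdk4 probe 1, 0.952 for Pdhb probe 3, 0.905 for Pdha1, 0.858 for Pdk2, 0.841 for Dlat and 0.797 for Pdhb probe 1, and it was -0.855 for Pdhb probe 2, -0.752 for Pdk1 and -0.03 for Pdk3. For deviations from the group means it was 0.924 for Pdk4 probe 1, 0.646 for Pdhb probe 3, 0.477 for Pdk2, 0.412 for Pdhb probe 1, 0.365 for Dlat, 0.139 for Pdha1, 0.178 for Pdk1, 0.238 for Pdk3 and -0.713 for Pdhb probe 2. The 3 arrays of a group stood in the order of their muscle signal in 1 group for Pdha1 and in 2 for Pdhb probe 3, and in the opposite order in 2 groups for Pdha1 and in 3 for Pdhb probe 2. These are descriptions of arrays that share their groups, with no test.

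With the muscle mean as a covariate, 0 of the 12 probes passed in WT, in the KO or in the average (3, 8 and 8 without it), and over all 21004 probes 1651, 0 and 1806 did. The average change of Pdha1 was then -0.98 ± 0.36 (limma adjusted p = 0.105), that of Dlat -0.65 ± 0.59 (limma adjusted p = 0.548) and that of Pdhb probe 3 -0.37 ± 0.40 (limma adjusted p = 0.631). That of Pdk2 was -0.10 ± 0.80 (limma adjusted p = 0.959) and that of Pdk4 probe 1 was 0.54 ± 0.38 (limma adjusted p = 0.432), while that of Pdk1 was 0.72 ± 0.40 (limma adjusted p = 0.294). In the KO alone, where no probe of the table passed, the estimates ranged from -4.51 ± 1.55 for Pdk2 to 0.46 ± 1.15 for Pdhb probe 2. Pdha1 stood at -1.56 ± 1.09, Dlat at -1.65 ± 1.66 and Pdhb probe 3 at -2.11 ± 1.22. These estimates were further below 0 than without the covariate, with far wider errors. That of Pdk4 probe 1 was nearer to 0, at -0.62 against -2.22 without the covariate. The muscle mean was itself completely split by injury, at 9.99 or more on the control arrays and at 9.34 or less on the injured arrays, so that muscle signal and injury can hardly be separated in this fit, and the standard errors widened.

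**Figure D3:**
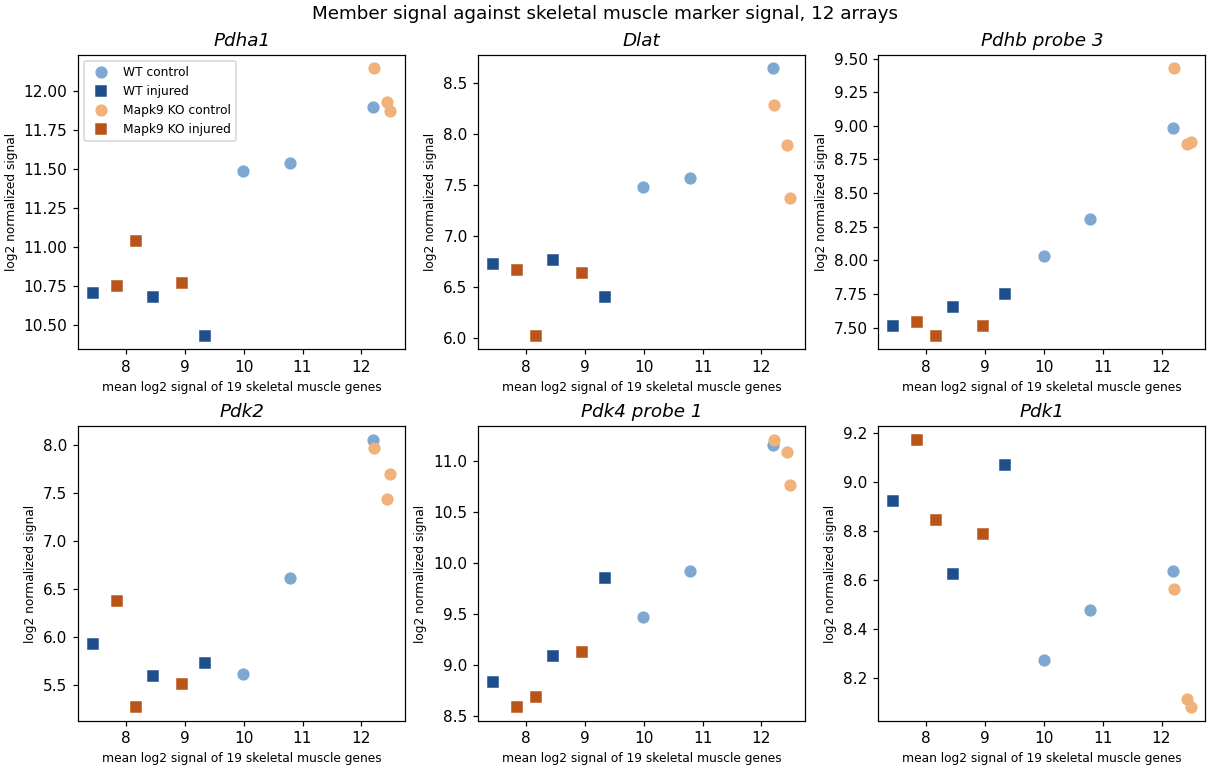
Each panel plots 1 probe (vertical axis, log2 normalized signal, scaled to its own range) against the mean log2 signal of 19 skeletal muscle genes (horizontal axis) on the 12 arrays, with circles for control and squares for injured hips. The control arrays lie at a muscle signal of 9.99 or more and the injured arrays at 9.34 or less in every panel.

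Between the genotypes, 0 of the 12 probes passed the limma test in control hips (0.119% of all probes did) and 0 in injured hips (0.181%). At an unadjusted p under 0.05 there was 1 probe in control hips, Pdk4 probe 1, against 1356 of all 21004, and 1 in injured hips, Pdk4 probe 2, against 2648 of all. The methods' t-test gave 0 members in both after adjustment. With the replicate block the members stayed at 0 in both, while 19 of all 21004 probes passed in control hips and 274 in injured hips. No member separated the genotypes without overlap in control hips, against 10.8% of all probes, and 2 did in injured hips (Pdha1 and Pdk4 probe 2), against 16.8%. In control hips Pdk4 probe 1 was higher in the KO by 0.84 ± 0.37 (limma adjusted p = 0.764) and Pdk2 by 0.94 ± 0.48 (limma adjusted p = 0.828). Without WT control replicate 3 both passed, at 1.33 (limma adjusted p = 0.0203) and 1.58 (limma adjusted p = 0.0271), in a fit in which 412 probes of the whole table passed, against 25 with that array. The muscle signal of the remaining WT controls was 10.79 and 9.99, against 12.22 to 12.49 in the KO, and its part in the result was not tested.

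The interaction test, of whether the injury changes of the KO and of WT differ, was passed in limma by 0 of the 12 probes and 0 of the 21004 (0%). With the replicate block, 0 of the 12 and 112 of the 21004 probes passed. Without the block, at an unadjusted p under 0.05, there were 2 members and 2088 probes in all. The 2 were Pdk4 probe 1, with a difference of -1.29 ± 0.52 (limma adjusted p = 0.428), and Pdhb probe 3, with -0.76 ± 0.33 (limma adjusted p = 0.471). Without WT control replicate 3 the difference for Pdk4 probe 1 was -1.78 (limma adjusted p = 0.0471), and 242 probes of the whole table passed, against 0 with that array. The larger number of calls in the KO is therefore not a tested difference between the genotypes.

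In the related gene lists that follow, each gene counts by its main probe, and the counts stand beside a background of 22.6% of all probes up and 24.2% down in the average, 12.6% up and 12.7% down in WT, and 19% up and 19.3% down in the KO. No count was tested as a set.

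The pyruvate dehydrogenase phosphatases undo what the kinases do, and 2 of the 3 fell in both genotypes. Pdp1, the catalytic subunit named Ppm2c on the array, fell by 1.40 in WT (limma adjusted p = 0.00701) and by 0.94 in the KO (limma adjusted p = 0.00198). Pdpr, the regulatory subunit, fell by 0.95 in WT (limma adjusted p = 0.00531) and by 1.09 in the KO (limma adjusted p = 0.000504). Pdp2, the other catalytic subunit, changed by -0.16 and -0.27 on the main of its 3 probes and did not pass in either (limma adjusted p = 0.603 and 0.236). Its dimmer probes gave 0.23 in WT and -0.10 in the KO, and -0.02 and -0.35. They did not pass either (limma adjusted p 0.245 to 0.968).

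Around the complex, genes of pyruvate supply and of its other uses went both ways. Of 8 measured genes 4 rose and 3 fell in the average injury change (median 0.09), where 46.7% of all probes changed. The largest were Slc16a3, which exports lactate (2.07, detected on 6 of 12 arrays), Gpt2, a mitochondrial alanine aminotransferase (1.64), and Ldhb, the heart-type lactate dehydrogenase subunit (-1.21). In WT 4 rose and 1 fell, and in the KO 3 rose and 3 fell. Of the 13 measured TCA cycle enzymes, which burn the acetyl-CoA, 9 fell and 0 rose in the average (median -0.71), 5 fell in WT and 9 in the KO. Idh3a, a subunit of isocitrate dehydrogenase, fell by 1.84 and Sdhb, a subunit of succinate dehydrogenase, fell by 1.13 in the average. The mean TCA signal per array was 9.89 to 10.53 in WT control, 9.44 to 9.70 in WT injured, 10.21 to 10.73 in Mapk9 KO control and 9.29 to 9.61 in Mapk9 KO injured hips. Among the WT controls it was highest, at 10.53, in replicate 3, whose muscle signal was 12.20, and 9.99 and 9.89 in replicates 1 and 2, at 10.79 and 9.99. The part of muscle in the fall of the TCA genes was not tested.

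The complex has relatives of the same design. Of 10 measured members and regulators of the other oxoacid dehydrogenases and the glycine cleavage system, 5 fell and 1 rose in the average (median -0.37), 0 fell and 1 rose in WT, and 4 fell and 1 rose in the KO. Gldc, the glycine decarboxylase, rose by 1.42, while Ogdh, of the oxoglutarate dehydrogenase, fell by 0.56 and Bckdha, of the branched-chain dehydrogenase, fell by 0.51. In WT alone Ogdh changed by -0.15 (limma adjusted p = 0.657) and Bckdha by -0.20 (limma adjusted p = 0.537). Of 7 genes for lipoate and thiamine supply, the cofactors of these enzymes, 4 fell and 2 rose in the average (median -0.45), 1 fell and 1 rose in WT, and 2 fell and 2 rose in the KO. Among them were the thiamine transporter Slc19a2 (0.76) and the mitochondrial malonyltransferase Mcat (-0.77).

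Of 8 factors known to act on Pdk genes, 5 rose and 2 fell in the average (median 0.70). Ppargc1a, the coactivator of mitochondrial genes that is abundant in muscle, fell by 2.00, with detection on 6 of 12 arrays. Ppard, a lipid-sensing receptor that induces Pdk4, rose by 1.39, and Hif1a, the hypoxia-inducible factor subunit that induces Pdk1, rose by 1.39. Hif1a changed by 0.49 in WT (limma adjusted p = 0.302) and by 2.28 in the KO (limma adjusted p = 7.59e-06), and the difference of these changes did not pass (limma adjusted p = 0.277). In WT alone 2 rose and 1 fell, and in the KO 5 rose and 2 fell.

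**Figure D4:**
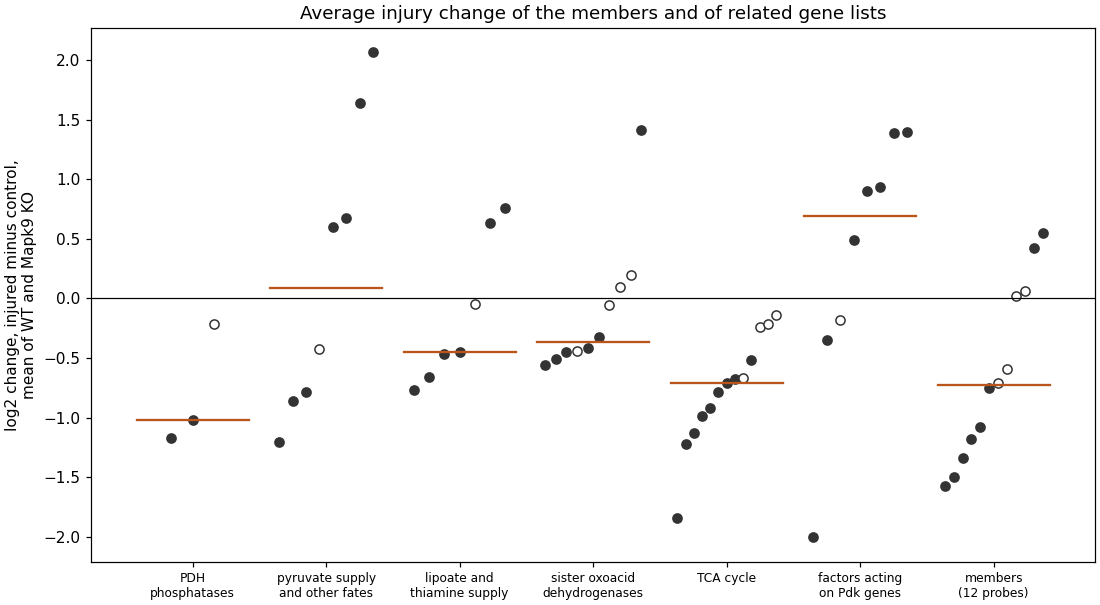
The vertical axis gives the average injury change (log2, injured minus control, mean of WT and Mapk9 KO) of each measured gene in 6 related lists and of the 12 member probes. Filled points passed the adjusted threshold, open points did not, and orange lines are the medians. The TCA cycle points all lie below 0, and the lists on pyruvate supply and on factors acting on Pdk genes hold points on both sides.

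The promoters of Pdk1 and Pdk4 are printed because Pdk1 rose and Pdk4 fell in the average injury change. Each is the 250 bases before the first transcription start listed in RefSeq, on mouse build GRCm38.p6, at chr2:71872974-71873223 (plus strand) for Pdk1 and at chr6:5496279-5496528 (minus strand) for Pdk4. Capitals mark GCGTG, 1 of the 2 core forms of the hypoxia response element, searched on both strands together with the other form, ACGTG.
Pdk1: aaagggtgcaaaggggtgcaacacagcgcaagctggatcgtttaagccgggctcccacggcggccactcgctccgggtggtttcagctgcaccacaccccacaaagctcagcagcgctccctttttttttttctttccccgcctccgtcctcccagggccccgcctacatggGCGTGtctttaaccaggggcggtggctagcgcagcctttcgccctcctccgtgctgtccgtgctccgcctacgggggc
Pdk4: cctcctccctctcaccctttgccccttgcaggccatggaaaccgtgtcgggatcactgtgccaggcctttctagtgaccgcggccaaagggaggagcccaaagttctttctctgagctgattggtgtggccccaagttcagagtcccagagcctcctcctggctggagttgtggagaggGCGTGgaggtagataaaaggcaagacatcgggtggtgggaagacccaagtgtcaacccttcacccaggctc

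Each window held 1 GCGTG and none of the other form. The printed form occurred in 28.2% and ACGTG in 16.6% of the 32851 promoters searched in the same way. A second start that RefSeq lists for Pdk1, at chr2:71874654-71874903 for its 250 bases, held neither form. The first windows of the other kinases, not printed, held more of these letters. Pdk2, at -1.49 in the average, held 2 ACGTG on the 2 strands of 1 CACGTG (2 or more in 6.81% of promoters). Pdk3, at 0.02 in the average, held 1 ACGTG and 3 GCGTG (3 or more in 2.77%). Whether any of these sites acts was not tested.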

How the data were processed

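RNA from hip cartilage was hybridised to 12 Illumina mouse bead arrays, 3 per group. The authors corrected the background with negative control probes and normalized the arrays by variance stabilisation, and the deposited table holds log2 values. The other deposited file holds bead intensity and a detection p-value per probe. The genome build of the probe coordinates is not given in the sources used here. Injury, genotype and interaction contrasts were fitted with limma 3.58.1 in R 4.3.3 over 21004 probes with Benjamini-Hochberg adjustment. An exact permutation test of 3 against 3 cannot go below 0.1, so none was used. The number of arrays limits the precision. Samples of 1 replicate number deviated together (18 pairs, correlations 0.153 to 0.390, other pairs -0.289 to 0.0825), and a block was tried. Other alternatives were normalizations, filters, left-out arrays, a muscle covariate and the methods' t-test. The number in the array code of the labels was also fitted as a block, with results not reported here. That number was not balanced between the genotypes, and WT control replicate 3 differed in it from the other WT controls. All member probes were named, and other genes if they changed on average and were among the 3 largest changes of their list, except some that are not reported here. The phosphatases, Ckm, Acta1 and Mapk9 were named regardless of their values, and Pxk was added after its values were seen. Members and lists were chosen with earlier results of these data known. Scripts were tested on simulated data. Promoter sequences came from RefSeq. All 9 genes were matched there by symbol.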

Additional observations from a re-analysis of the deposited data

How the results depend on the processing

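The number of member probes that changed in WT was 3, and it was 1 with all probes of the array after normexp and quantile normalization (5011 of 45281 probes in all), 6 with the replicate block (6225 of 21004), 0 with the skeletal muscle mean as a covariate (1651) and 1 with the methods' t-test (2368). In the Mapk9 KO the 8 became 0 with the muscle covariate (0 of all probes), 4 with the methods' t-test (5785) and 5 at the fold limit. In the average injury effect the 8 became 0 with the muscle covariate and 5 at the fold limit. With 1 array left out, the counts ran from 2 to 5 in WT, from 7 to 8 in the KO, from 7 to 9 in the average, from 0 to 2 between genotypes in control hips and from 0 to 1 for the interaction, and stayed at 0 between genotypes in injured hips. The replicate block changed no call beyond those given above.

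With the muscle covariate the sign turned in WT for Pdhb probe 1 (0.17), Pdhb probe 2 (-0.44), Pdhb probe 4 (0.87), Pdk2 (0.51), Pdk3 (0.022), Pdk4 probe 1 (0.81) and Pdk4 probe 2 (0.0012), in the KO for Pdk1 (-0.90) and Pdk4 probe 2 (-0.22), and in the average for Pdhb probe 2 (-0.34), Pdhb probe 4 (0.49) and Pdk4 probe 1 (0.54). None of these values passed the test. Leaving out 1 array turned Pdhb probe 4 in WT (range -0.75 to 0.0063), Dld in the KO (range -0.79 to 0.043) and Pdk4 probe 2 in the KO (range -0.10 to 0.41), none of which was a call. The cause was not tested. The WT call of Pdhb probe 3 was lost under normexp and quantile normalization (limma adjusted p = 0.0562), quantile normalization alone (0.0587), median centring (0.0527) and with all probes of the array (0.140), and in the methods' t-test (0.161).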
